A study of Rattus norvegicus with 12 samples.

Results

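Il19, Il20 and Il24 encode 3 neighbouring cytokines of the interleukin-10 family and lie in a row on rat chromosome 13. They are described here as 3 of the 13733 protein-coding genes of the detected-genes table. The 3 rows were chosen by their position next to each other and by their measured increase in these same libraries, so the group levels of the 3 cytokines are given as a description, with no test. What was measured on other genes, namely the neighbours within 200 kb, the receptors and the signalling genes, was tested.

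To characterize the transcripts that respond to the silencing of mt-tRF-LeuTAA, a piece of a leucine tRNA made in mitochondria, total RNA of islet cells was sequenced. Pancreatic islets of adult (3-month-old) male Wistar rats were dispersed into single cells and transfected with 30 pmol of single-stranded oligonucleotide, using Lipofectamine 2000, for 72 h. The 6 anti-mt-tRF-LeuTAA libraries received an antisense oligonucleotide complementary to the fragment, and the 6 anti-control libraries received a scrambled control oligonucleotide. Each replicate number stands for the islets of a single rat and occurs in both groups, so all animals are of 1 strain and the cells of both groups went through dispersion, culture and transfection. Untransfected cells were not analysed here, and the fragment, a small RNA, is not a row of the table.

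Levels are log2 CPM, the log2 of the reads of a gene scaled to the size of its library (CPM), with a small prior count added to avoid the log of 0. The listed genes held 16.4 to 20.3 M (mega) reads per anti-mt-tRF-LeuTAA library and 17.6 to 23.4 M per anti-control library, so a single read stood for 0.045 to 0.0594 CPM. Markers of islet endocrine cells were all listed (11 of 11) and their summed level was 92703 to 186735 CPM after silencing and 84350 to 205768 CPM in anti-control, which fits the labelled tissue. In these bulk samples, a change in the number of cells of a type and a change in RNA per cell cannot be told apart.

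IL-19, IL-20 and IL-24 are secreted proteins, known in human and mouse mainly from skin, epithelia and activated myeloid cells. They act on a receptor pair made of the IL20RA and IL20RB chains, and IL-20 and IL-24 act also on a pair of IL22RA1 and IL20RB. Binding activates Janus kinases and the transcription factor STAT3, which turns on feedback inhibitors such as SOCS3. The p38 kinase and its substrate MK2, the product of Mapkapk2, are known to stabilize the mRNAs of many cytokines.

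In the coordinates of Rnor_6.0, the assembly of the deposited table, Il19 (ENSRNOG00000025571) spans 47664080 to 47670407, Il20 (ENSRNOG00000004633) spans 47644071 to 47647715 and Il24 (ENSRNOG00000004470) spans 47618452 to 47623849 on the minus strand of chromosome 13. In the direction of transcription Il19 comes at the head, Il20 follows after a gap of 16.4 kb and Il24 after a further 20.2 kb. From the start of Il19 to the end of Il24 the row covers 52.0 kb. The table gives whole gene spans and not exons, so reads cannot be placed in exons, introns or UTRs.

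Because all 3 genes were higher after silencing, the sequences at their starts are shown. The windows are the RefSeq promoters of the GRCr8 assembly, which is a newer build than that of the table, and each holds 250 bases before the annotated start and 50 bases after it. All 3 genes had an entry, and the RefSeq start may differ from the start of the gene span in the table. Capitals mark matches to the searched motifs, namely TATAA (the TATA box), TGANTCA (AP-1) and TTCNNNGAA (STAT), on either strand.
Il19 promoter, chr13:44958665-44958964, minus strand: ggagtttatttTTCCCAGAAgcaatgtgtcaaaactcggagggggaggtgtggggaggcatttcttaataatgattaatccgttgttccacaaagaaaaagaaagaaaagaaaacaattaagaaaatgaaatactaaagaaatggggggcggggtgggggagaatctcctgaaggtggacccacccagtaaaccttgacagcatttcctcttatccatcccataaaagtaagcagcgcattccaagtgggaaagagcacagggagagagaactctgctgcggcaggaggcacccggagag
Il20 promoter, chr13:44936844-44937143, minus strand: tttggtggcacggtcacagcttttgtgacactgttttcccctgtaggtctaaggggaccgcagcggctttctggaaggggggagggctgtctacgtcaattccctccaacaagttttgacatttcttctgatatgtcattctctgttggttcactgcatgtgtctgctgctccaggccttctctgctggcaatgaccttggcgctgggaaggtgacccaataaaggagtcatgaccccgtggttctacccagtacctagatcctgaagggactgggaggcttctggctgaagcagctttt
Il24 promoter, chr13:44910711-44911010, minus strand: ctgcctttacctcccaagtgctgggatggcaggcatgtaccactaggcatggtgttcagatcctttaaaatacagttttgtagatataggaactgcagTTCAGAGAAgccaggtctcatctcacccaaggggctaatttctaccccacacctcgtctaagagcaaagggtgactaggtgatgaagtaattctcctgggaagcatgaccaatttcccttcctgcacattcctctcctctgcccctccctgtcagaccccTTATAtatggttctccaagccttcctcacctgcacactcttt
The STAT motif, which reads alike on both strands, occurred at bases 12 to 20 of the Il19 window and at bases 99 to 107 of the Il24 window. The Il24 window also held a match to TATAA on the opposite strand, at bases 259 to 263, past the annotated start. The Il20 window held none of the 3 motifs, and TGANTCA was in none of the 3 windows. Of 33469 RefSeq promoters of the same length, 8.87% held the STAT motif, 26.2% held TATAA and 7.33% held TGANTCA. GC content was 46.3% in the Il19 window, 52.7% in the Il20 window and 49.0% in the Il24 window, and the median promoter had 51.7%. A match is a run of letters and not a shown binding site.

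All 3 cytokine transcripts were scarce or without a read in anti-control cells and were present in every anti-mt-tRF-LeuTAA library. Over the 6 libraries of each group, the 3 genes together held 7052 reads after silencing (752 to 1489 per library) and 46 reads in anti-control (3 to 14 per library).

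Il19, the member at the head of the row, had 469, 517, 259, 383, 355 and 402 reads in anti-mt-tRF-LeuTAA replicates 1 to 6, against 9, 6, 2, 4, 3 and 1 reads in anti-control replicates 1 to 6. The groups did not overlap, and replicate 2 was the highest and replicate 3 the lowest of the silenced libraries. The level averaged 4.33 ± 0.37 log2 CPM in anti-mt-tRF-LeuTAA cells and -2.14 ± 0.76 log2 CPM in anti-control cells (SD, n = 6 each). That is a difference of 6.47 on the log2 scale, 88.8-fold on the deposited scale, which understates the change of scarce genes. From summed reads, the level was 20.6 CPM after silencing and 0.211 CPM in anti-control, a ratio of 97.6 with a 95% counting interval of 66.1 to 151.

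Il20 gave 446, 564, 273, 442, 340 and 408 reads in anti-mt-tRF-LeuTAA replicates 1 to 6, against 5, 2, 1, 9, 0 and 4 reads in anti-control replicates 1 to 6. Again replicate 2 was the highest and replicate 3 the lowest of the silenced libraries, and anti-control replicate 5 had no read. The level averaged 4.38 ± 0.39 log2 CPM after silencing and -2.48 ± 1.16 log2 CPM in anti-control (SD, n = 6 each), a difference of 6.86 on the log2 scale or 116-fold. From summed reads, the level was 21.3 CPM after silencing and 0.177 CPM in anti-control, a ratio of 120 with a 95% counting interval of 78.8 to 195.

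Il24, the last member, gave 347, 408, 220, 333, 438 and 448 reads in anti-mt-tRF-LeuTAA replicates 1 to 6, against 0 reads in each of the 6 anti-control libraries. It averaged 4.21 ± 0.37 log2 CPM after silencing (SD, n = 6), from 3.60 in replicate 3 to 4.56 in replicate 2. A count of 0 over the 6 anti-control libraries allows up to 3 reads over the group, or 0.0253 CPM. Against this floor the summed level after silencing, 18.9 CPM, was at least 748-fold higher, and against the two-sided exact 95% limit of 3.69 reads, the basis of the intervals for Il19 and Il20, at least 609-fold higher. The deposited log2 difference of 8.50 depends on the prior count and is no bound. Counting intervals and floors cover counting error only, since reads without molecular identifiers are not independent molecules.

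**Figure D1:**
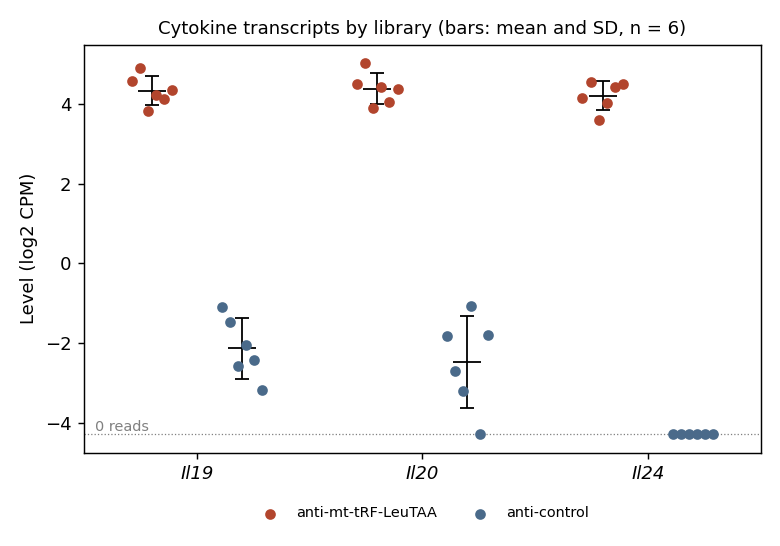
Level of each cytokine transcript (y axis, log2 CPM) in the anti-mt-tRF-LeuTAA libraries and, to their right, the anti-control libraries, with 1 point per library and bars for mean and SD (n = 6). The silenced libraries average 4.33, 4.38 and 4.21 log2 CPM for Il19, Il20 and Il24, and all 6 anti-control libraries of Il24 lie on the dotted line for 0 reads.

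By rank of the log2 difference among the 13733 genes, Il24 stood at 1, Il20 at 13 and Il19 at 21, which describes the values the members were chosen by. The silenced library was the higher one in 6 of 6 rats for each gene. Within rats the log2 difference ran from 5.67 to 7.53 for Il19, from 5.50 to 8.35 for Il20 and from 7.89 to 8.85 for Il24. All 6 silenced libraries lay above all 6 anti-control libraries for 3 of 3 members, as they did for 7.92% of all genes, while the reverse order held for 2.27%. Since the members were chosen on this contrast, nothing is read from that count.

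The spread among the silenced libraries was not used to choose the members, so the 3 transcripts were compared over the 6 rats. For Il19 and Il20, Pearson's r was 0.960 (exact permutation p = 0.00556, 0.0333 after Benjamini-Hochberg adjustment over the 6 relations computed, n = 6). Spearman's rho was 0.943 and did not pass the adjustment (exact permutation p = 0.0167, adjusted 0.1), and r was 0.782 without replicates 2 and 3, the libraries farthest from the median. Il19 and Il24 gave r = 0.691 (exact permutation p = 0.106, adjusted 0.304) and rho = 0.714 (exact p = 0.136, adjusted 0.272). For Il20 and Il24, r was 0.598 (exact permutation p = 0.203, adjusted 0.304) and rho 0.543 (exact p = 0.297, adjusted 0.446). Without replicates 2 and 3, r of Il24 was -0.24 with Il19 and -0.58 with Il20, so the positive values of Il24 rest on those 2 libraries. The levels of a library share its scaling, and its part in these correlations was not tested.

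Listed neighbours within 200 kb were then compared, since they share the chromosomal region and were chosen by position among the detected genes. A neighbour scarce in anti-control, such as LOC498222, may be listed through its silenced libraries. The filter for detected genes was not given, so the count of neighbours that rose may depend on it. Of the 6 neighbours, 1 was higher after silencing and 0 were lower by limma, with a Benjamini-Hochberg adjusted p of at most 0.05 over all genes, where 10.9% of all genes were called higher and 4.65% lower. With the replicate number as a block, 1 neighbour was higher and 2 were lower, against 17.6% of all genes called higher and 17.7% called lower. The median log2 difference was 0.12 over the neighbours and -0.04 over all genes.

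LOC498222, annotated as similar to a specifically androgen-regulated protein, was the neighbour that rose. It lies on the opposite strand, 151 kb past the end of Il24. It had 322, 342, 129, 257, 222 and 201 reads in anti-mt-tRF-LeuTAA replicates 1 to 6, against 7, 14, 4, 3, 4 and 4 reads in anti-control replicates 1 to 6. As for the cytokines, replicate 2 was the highest and replicate 3 the lowest silenced library, and the groups did not overlap. Its level was 3.60 ± 0.52 log2 CPM after silencing and -1.65 ± 0.70 log2 CPM in anti-control (SD, n = 6 each), a 38.2-fold increase (log2 difference 5.25, SE 0.34, limma adjusted p = 2.45e-07). The gene that precedes it on its strand, Yod1, which encodes a deubiquitinase and ends 11.4 kb before it, averaged 4.30 ± 0.27 log2 CPM after silencing and 4.15 ± 0.42 in anti-control (limma adjusted p = 0.69).

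Mapkapk2, which encodes the kinase MK2, is the nearest listed gene before Il19 on the same strand, and its end lies 115 kb before the start of Il19. It held 3110, 3953, 3327, 3380, 4070 and 4259 reads in anti-mt-tRF-LeuTAA replicates 1 to 6, against 4416, 4493, 2854, 3170, 3495 and 2967 reads in anti-control replicates 1 to 6. Its level was 7.57 ± 0.21 log2 CPM after silencing and 7.48 ± 0.24 log2 CPM in anti-control (SD, n = 6 each), a difference within the spread between libraries (log2 difference 0.09, limma adjusted p = 0.708). Over the silenced libraries its r was 0.319 with Il19, 0.319 with Il20 and 0.655 with Il24 (exact permutation p = 0.542, 0.578 and 0.158, adjusted 0.578, 0.578 and 0.304, n = 6). Its rho was 0.257, 0.0857 and 0.771 (exact permutation p = 0.658, 0.919 and 0.103, adjusted 0.79, 0.919 and 0.272), and r without the 2 libraries farthest from its own median was 0.353, -0.05 and 0.683. In the RefSeq gene order Il10 lies between Mapkapk2 and Il19 and Fcamr lies next to Pigr, and neither was analysed here.

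Fcmr, the gene of the Fc receptor for IgM, faces Il24 from the other strand, with 1.39 kb between the ends of the pair. It averaged 0.59 ± 2.45 log2 CPM after silencing and -0.01 ± 2.74 in anti-control (SD, n = 6 each, limma adjusted p = 0.828, and 0.107 with the replicate block). Within rats it was higher after silencing in 5 of 6. Its level varied mainly between rats: in replicates 5 and 6 it was -2.34 and -2.71 log2 CPM after silencing and -2.43 and -4.29 in anti-control, while replicates 1 to 4 of both groups lay above 0.5. Pigr, which carries polymeric immunoglobulins across epithelia, averaged 4.51 ± 0.82 log2 CPM after silencing and 4.87 ± 0.95 in anti-control (log2 difference -0.36, limma adjusted p = 0.681, and 0.0244 with the replicate block). Pfkfb2, which encodes a regulator of glycolysis and lies on the strand of the cytokines, averaged 8.16 ± 0.31 log2 CPM after silencing and 8.37 ± 0.39 in anti-control (log2 difference -0.21, limma adjusted p = 0.516, and 0.0176 with the replicate block).

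**Figure D2:**
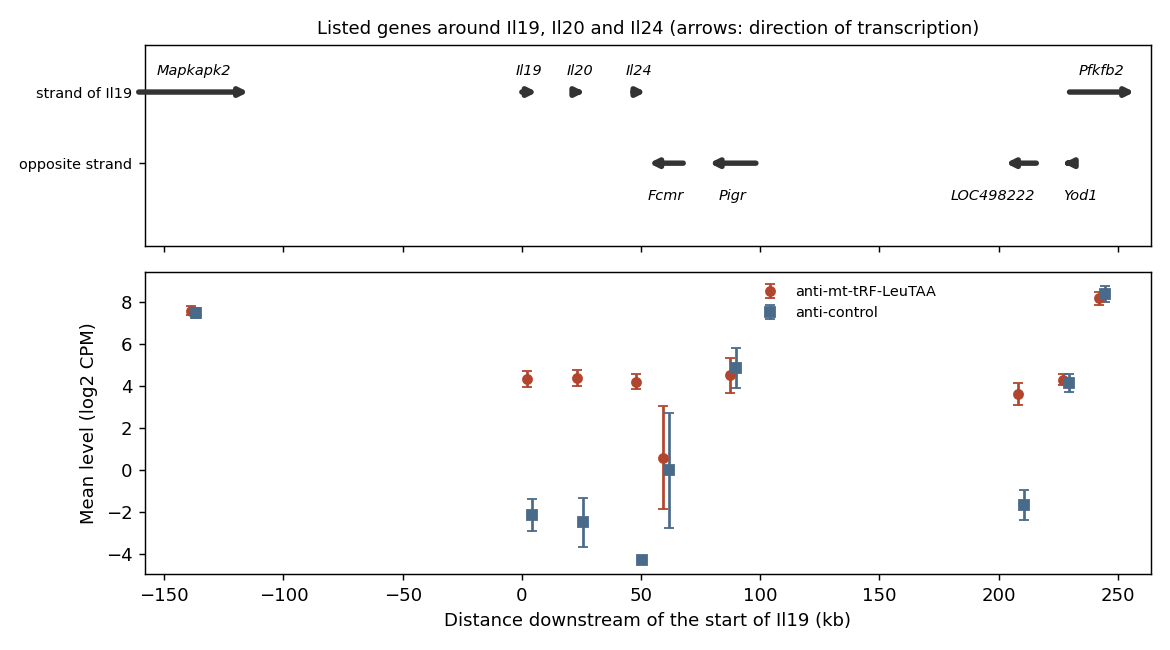
Positions of the listed genes, as arrows in the direction of transcription (top), and their mean levels with SD (n = 6, log2 CPM, bottom), against the distance from the start of Il19 in kb. Il19, Il20, Il24 and LOC498222 stand apart between the groups, whereas the means of Mapkapk2 are 7.57 log2 CPM in anti-mt-tRF-LeuTAA cells and 7.48 log2 CPM in anti-control cells.

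The receptor chains through which the 3 cytokines act, Il20ra, Il20rb and Il22ra1, were examined next, within a list of 7 receptor genes. Il22ra2, Il10ra, Il10rb and Ifnlr1 on that list are not chains of either pair. All 7 receptor genes of the list were measured, of which 2 rose and 1 fell (2 rose and 2 fell with the replicate block), where 10.9% of all genes were higher and 4.65% lower (17.6% and 17.7% with the block). Their median log2 difference was -0.02, against -0.04 over all genes. The genes that rose, Il20rb and Il22ra2, were scarce in anti-control and may be listed through their silenced libraries. The list was also chosen with earlier results of these data known, so these calls are not independent of that choice.

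Il20rb encodes the chain shared by both receptor pairs, and it was the receptor gene that rose furthest. It had 276, 232, 177, 227, 218 and 192 reads in anti-mt-tRF-LeuTAA replicates 1 to 6, against 11, 5, 1, 2, 20 and 10 reads in anti-control replicates 1 to 6. Each silenced library thus lay above every anti-control library. Its level was 3.51 ± 0.23 log2 CPM after silencing and -1.54 ± 1.25 log2 CPM in anti-control (SD, n = 6 each, log2 difference 5.04, SE 0.48, limma adjusted p = 7.08e-06). Il20rb lies on chromosome 8, from 108747204 to 108777717 on the minus strand, and Nck1, an adaptor gene that ends 10.1 kb before it on that strand, had a log2 difference of 0.04 (limma adjusted p = 0.761).

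Il20ra, the partner chain of the IL20RA and IL20RB pair, fell. It had 222, 101, 219, 237, 209 and 179 reads in anti-mt-tRF-LeuTAA replicates 1 to 6, against 297, 258, 334, 399, 330 and 284 reads in anti-control replicates 1 to 6. Its level was 3.29 ± 0.39 log2 CPM after silencing and 4.00 ± 0.23 log2 CPM in anti-control (SD, n = 6 each, log2 difference -0.71, SE 0.18, limma adjusted p = 0.0156). It was lower in 6 of 6 rats and the groups did not overlap. Il22ra1, the partner chain of the other pair, averaged 2.91 ± 0.60 log2 CPM after silencing and 2.93 ± 0.30 in anti-control (log2 difference -0.02, limma adjusted p = 0.968). At this depth the transcripts of both receptor pairs were present in every silenced library.

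Il22ra2, which encodes a soluble binding protein for the related cytokine IL-22, rose to 0.68 ± 0.35 log2 CPM after silencing, against -2.86 ± 0.95 in anti-control (SD, n = 6 each, log2 difference 3.54, limma adjusted p = 4.93e-05). This corresponds to 34, 40, 23, 36, 24 and 27 reads in anti-mt-tRF-LeuTAA replicates 1 to 6, against 7, 2, 0, 1, 2 and 2 reads in anti-control replicates 1 to 6. Il22ra2 and Il20ra lie in a row on the plus strand of chromosome 1, with 73.4 kb between them, so the neighbours moved in opposite directions. Ifngr1, a chain of the interferon gamma receptor that ends 12.7 kb before Il22ra2, had a log2 difference of -0.27 (limma adjusted p = 0.103, and 0.0101 with the replicate block). Among the other receptor genes, Il10rb, the second chain for IL-10 and IL-22, averaged 4.95 ± 0.56 log2 CPM after silencing and 5.30 ± 0.37 in anti-control (limma adjusted p = 0.411, and 0.026 with the replicate block). Il10ra and Ifnlr1, the chains for IL-10 and for lambda interferons, had log2 differences of -0.09 and -0.01 (limma adjusted p = 0.923 and 0.985).

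**Figure D3:**
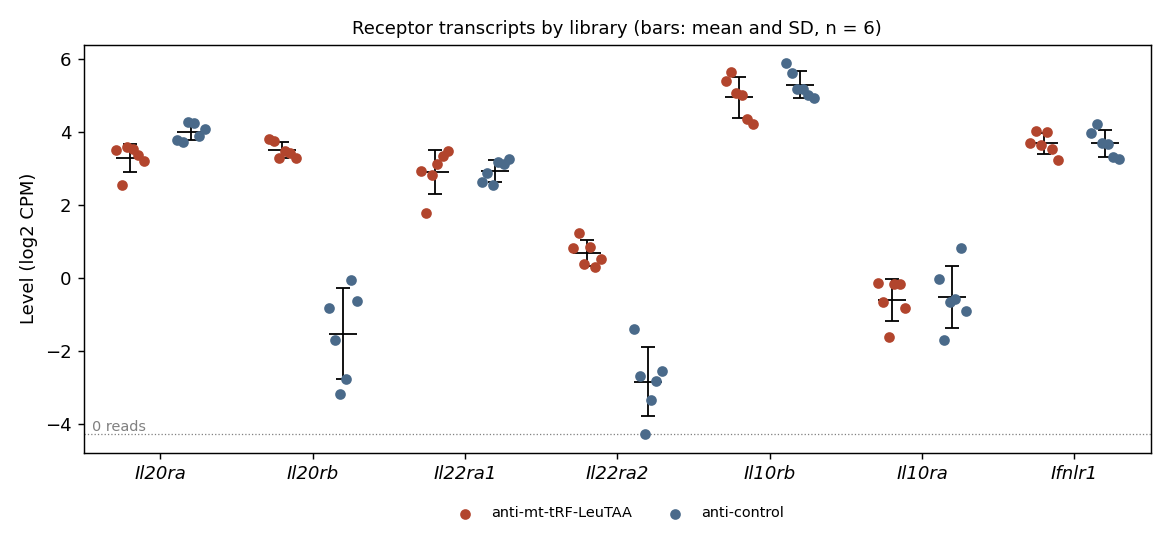
Level of each receptor transcript (y axis, log2 CPM) in the anti-mt-tRF-LeuTAA libraries and, to their right, the anti-control libraries, with 1 point per library and bars for mean and SD (n = 6). Il20rb averages 3.51 log2 CPM after silencing and -1.54 log2 CPM in anti-control, and Il20ra averages 3.29 log2 CPM after silencing and 4.00 log2 CPM in anti-control.

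Of 13 genes of the JAK-STAT relay, which carry the signal from the receptors, 0 rose and 2 fell, beside 10.9% of all genes higher and 4.65% lower. With the replicate block 2 rose and 7 fell, beside 17.6% and 17.7% of all genes. The median log2 difference of the relay was -0.16, against -0.04 over all genes. Jak3, a kinase of cytokine receptors of lymphoid cells, fell by 0.48 on the log2 scale (limma adjusted p = 0.00584), and Stat5a, a transcription factor of prolactin and growth hormone signalling, fell by 0.52 (limma adjusted p = 0.00599). Stat3 averaged 9.28 ± 0.05 log2 CPM after silencing and 9.37 ± 0.06 in anti-control (log2 difference -0.09, limma adjusted p = 0.352). Jak1 and Jak2, kinases of many cytokine receptors, had log2 differences of 0.34 and 0.51 (limma adjusted p = 0.247 and 0.469, and 0.00624 and 0.0156 with the replicate block). Stat2, Stat6, Tyk2, Pias3 and Stat5b were called lower with the block alone. Their log2 differences were -0.62, -0.22, -0.24, -0.25 and -0.16 (limma adjusted p = 0.0143, 0.0146, 0.0208, 0.0351 and 0.0352 with the block).

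Of 21 listed targets and feedback genes of STAT3, 1 rose and 0 fell (4 rose and 3 fell with the replicate block), and their median log2 difference was 0.11. The shares over all genes were again 10.9% higher and 4.65% lower (17.6% and 17.7% with the block), so the counts of targets were near or under the background. The gene that rose was Junb, a subunit of the AP-1 transcription factor, with 7.96 ± 0.60 log2 CPM after silencing and 6.92 ± 0.52 in anti-control (SD, n = 6 each, log2 difference 1.04, limma adjusted p = 0.0291). It was higher in 5 of 6 rats, and omitting a single library ended the call in 6 of 12 fits, at adjusted p-values of 0.0514 to 0.0672. Best2, a channel gene that ends 28.1 kb before Junb on its strand, had a log2 difference of 5.31 (limma adjusted p = 4.52e-06). Best2 was scarce in anti-control (-3.56 ± 1.14 log2 CPM, against 1.75 ± 0.42 after silencing) and may be listed through its silenced libraries. The libraries whose omission ended the Junb call were anti-mt-tRF-LeuTAA replicates 1, 2 and 4 and anti-control replicates 4, 5 and 6. Socs3, the feedback inhibitor, averaged 5.74 ± 0.57 log2 CPM after silencing and 5.35 ± 0.73 in anti-control (log2 difference 0.39, limma adjusted p = 0.509, and 0.0293 with the replicate block). Reg3b, a secreted lectin that epithelia make in response to IL-22, and Lif, a cytokine of the IL-6 family, had log2 differences of 0.95 and 0.87 (limma adjusted p = 0.599 for Reg3b and 0.467 for Lif, against 0.02 and 0.0122 under the replicate block). Vegfa, Osmr and Ccnd1 had log2 differences of -0.53, -0.44 and -0.38 (limma adjusted p = 0.0562 for Vegfa, 0.637 for Osmr and 0.416 for Ccnd1, against 0.000337, 0.00111 and 0.0127 under the replicate block).

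Of 16 listed genes of the p38 and MK2 pathway, 1 rose and 0 fell (6 rose and 1 fell with the replicate block), with a median log2 difference of 0.16, against 10.9% of all genes higher and 4.65% lower (17.6% and 17.7% with the block). Mapkapk5, which encodes a kinase related to MK2, averaged 5.47 ± 0.15 log2 CPM after silencing and 5.14 ± 0.11 in anti-control (log2 difference 0.33, limma adjusted p = 0.015) and was higher in 6 of 6 rats. Mapk14, which encodes the p38 alpha kinase, had a log2 difference of -0.06 (limma adjusted p = 0.575). Mapkapk3, Creb1, Mapk11, Zfp36 and Elavl1 were called higher with the block alone. Their log2 differences were 0.51, 0.33, 0.59, 0.24 and 0.23 (limma adjusted p = 0.0155, 0.0301, 0.0179, 0.0198 and 0.0122 with the block). Mapk13 was called lower with the block alone (log2 difference -0.53, limma adjusted p = 0.000893 with the block). Over receptors, relay, targets, p38 pathway and the other cytokines of the family (Il10, Il22, Ifnl1 and Ifnl3, not analysed here), 57 of the 67 genes considered were tested, of which 4 rose and 3 fell, and 14 rose and 13 fell with the replicate block. Over all genes, 10.9% were higher and 4.65% lower, and 17.6% and 17.7% with the block.

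**Figure D4:**
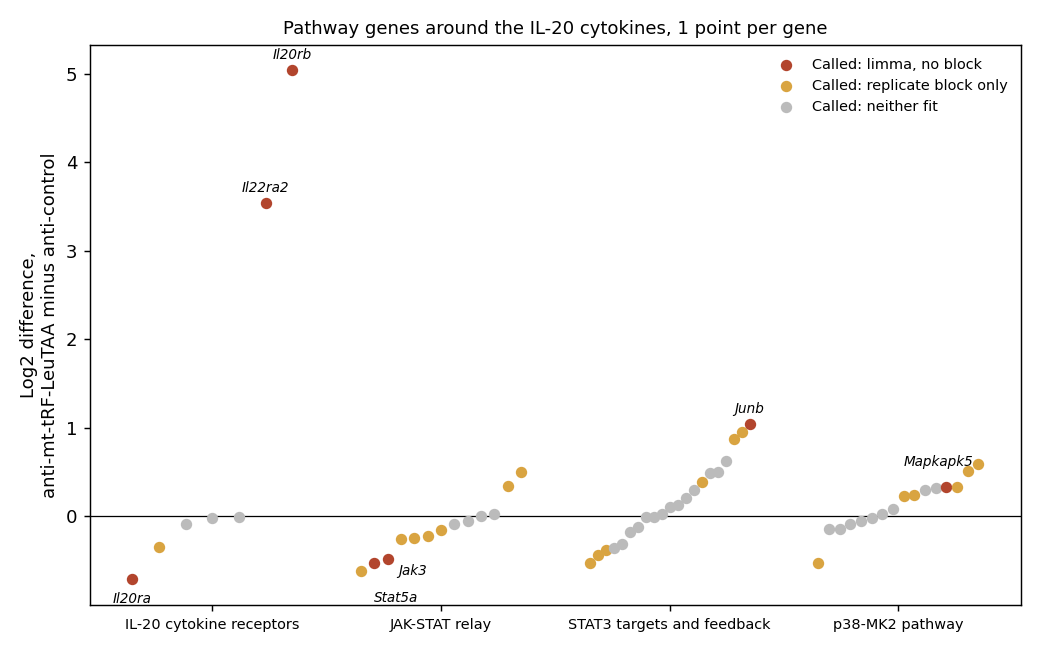
Log2 difference, anti-mt-tRF-LeuTAA minus anti-control (y axis), of each listed gene of the 4 pathway lists (x axis), coloured by whether limma called it without the block, with the replicate block only, or in neither fit. Il20rb and Il22ra2 lie at 5.04 and 3.54, whereas the called genes of the relay, Stat5a and Jak3, lie at -0.52 and -0.48.

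Markers of the cell types that are known to make or receive these cytokines were read in the same fit, in which 10.9% of all genes were higher and 4.65% lower (17.6% and 17.7% with the replicate block). Of 14 macrophage markers 13 were listed, of which 2 rose and 0 fell (2 rose and 2 fell with the replicate block), and their summed level was 66.9 to 160 CPM after silencing and 64.0 to 213 CPM in anti-control. Mrc1, the mannose receptor, averaged 4.61 ± 0.70 log2 CPM after silencing and 1.92 ± 0.44 in anti-control (log2 difference 2.68, limma adjusted p = 4.25e-05). Cd68, a lysosomal glycoprotein, averaged 4.97 ± 0.22 log2 CPM after silencing and 2.95 ± 1.18 in anti-control (log2 difference 2.02, limma adjusted p = 0.00735). On the strands of these genes, Tmem236, which ends 10.6 kb before Mrc1, had a log2 difference of 4.59 (limma adjusted p = 5.47e-06), and Eif4a1, which ends 0.617 kb before Cd68, had one of 0.06 (limma adjusted p = 0.756). Tmem236 was scarce in anti-control (-3.34 ± 0.85 log2 CPM, against 1.25 ± 0.61 after silencing) and may be listed through its silenced libraries. The other macrophage markers, such as Csf1r, Adgre1, Lyz2 and Ptprc, had log2 differences of -0.21, -0.79, -0.03 and -0.05 (limma adjusted p = 0.875, 0.674, 0.981 and 0.956). The 2 that fell with the block were Adgre1 and Aif1, a calcium-binding protein (limma adjusted p = 0.0259 and 0.0346 with the block). The part of macrophages in the cytokine levels was not tested.

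Of 10 T cell markers 4 were listed, and no Cd3 chain was among them. Their summed level was 7.18 to 11.9 CPM after silencing and 6.48 to 12.9 CPM in anti-control, and 0 rose and 0 fell. Cd4 and Lck had log2 differences of -0.23 and 0.20 (limma adjusted p = 0.765 and 0.846). Of 8 B cell markers 3 were listed, without Ms4a1 and Cd79a, and summed to 5.47 to 12.7 CPM after silencing and 0.270 to 5.33 CPM in anti-control. Cd79b, the signalling chain of the B cell receptor, was the 1 called, with a log2 difference of 3.70 (limma adjusted p = 0.0115), and with the replicate block Cd22, an inhibitory receptor, was called as well (log2 difference 1.92, limma adjusted p = 0.0163 with the block). Upstream of Cd79b on its strand, Scn4a, a sodium channel gene of muscle that ends 4.44 kb before it, had a log2 difference of 5.26 (limma adjusted p = 1.31e-08). Cd79b and Scn4a were scarce in anti-control (-1.31 ± 2.34 and -0.21 ± 0.48 log2 CPM) and may be listed through their silenced libraries. Of 8 keratinocyte markers only Krt10 was listed, at 0.811 to 2.10 CPM after silencing and 1.33 to 2.07 CPM in anti-control (log2 difference -0.06, limma adjusted p = 0.911).

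Of 8 ductal markers 7 were listed, and they summed to 463 to 619 CPM after silencing and 561 to 777 CPM in anti-control. Epcam, an epithelial adhesion protein, fell by 0.38 on the log2 scale (limma adjusted p = 0.0201), a call that scaling to library size alone and quantile normalization ended (adjusted p = 0.0971 and 0.124). With the replicate block Krt7, a keratin, was lower as well (log2 difference -0.36, limma adjusted p = 0.00213 with the block). Endothelial markers (6 of 7 listed) summed to 41.4 to 485 CPM after silencing and 25.5 to 511 CPM in anti-control, and Kdr and Cdh5 had log2 differences of 0.57 and 0.36 (limma adjusted p = 0.758 and 0.88). With the replicate block Kdr was called higher (limma adjusted p = 0.00455, higher in 6 of 6 rats). Stromal markers (7 of 8 listed) summed to 462 to 2971 CPM after silencing and 1162 to 4388 CPM in anti-control, with log2 differences of -0.82 for Col1a1 and -0.43 for Col3a1 (limma adjusted p = 0.373 and 0.668). With the block Col1a1 and Dcn, the gene of the proteoglycan decorin, were called lower (limma adjusted p = 0.00628 and 0.0444). Of the endocrine markers, 1 fell, namely Pdx1, a transcription factor of beta cells (log2 difference -0.68, limma adjusted p = 0.0181), joined by Nkx6-1, another such factor, with the replicate block (log2 difference -0.47, limma adjusted p = 0.00214). The part of these cell types in the cytokine levels was not tested.

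The 5 genes whose levels followed the summed reads of the 3 cytokines most closely were Slc27a5 (r = 0.995 over the 12 libraries), Lgals4 (0.993), Tecta (0.992), Adgrf4 (0.991) and Wfikkn1 (0.990). The 12 libraries fall into the 2 treatment groups, so these values mainly restate a difference between the groups and carry no test. Within the 6 silenced libraries alone, r was 0.696, 0.748, 0.719, 0.672 and 0.789 in the same order. These 6 libraries are among the 12 by which the genes were chosen, so these values carry no test either. Tecta, which encodes alpha-tectorin of the inner ear, had 742, 746, 406, 544, 840 and 1044 reads in anti-mt-tRF-LeuTAA replicates 1 to 6, against 4, 2, 0, 6, 2 and 3 reads in anti-control replicates 1 to 6. Lgals4, the gene of the intestinal lectin galectin-4, had 101 to 154 reads per library after silencing and 2 to 10 in anti-control. Slc27a5, a bile acid CoA ligase of liver, had 14 to 20 reads per library after silencing and 0 or 1 in anti-control. Adgrf4, an adhesion G protein-coupled receptor, had 177 to 331 reads per library after silencing and 0 to 4 in anti-control, and Wfikkn1, a secreted protease inhibitor domain protein, had 310 to 522 reads after silencing and 37 to 77 in anti-control. They lie on chromosomes 1, 8, 9 and 10, and none lies on chromosome 13. The nearest listed genes before them on the same strand had log2 differences of -0.17 (Zbtb45, before Slc27a5), -0.01 (Ech1, before Lgals4), 0.47 (AC133265.2, before Tecta), 7.28 (Adgrf2, before Adgrf4) and 0.70 (Rab40c, before Wfikkn1). Adgrf2 averaged -3.45 log2 CPM in anti-control and may be listed through its silenced libraries.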

How the data were processed

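Total RNA of 12 libraries was measured, 6 anti-mt-tRF-LeuTAA and 6 anti-control, grouped by their labels. Per the labels the libraries were stranded, and Rnor_6.0 with STAR 2.5.3a, cutadapt 1.8, HTSeq 0.9.1, edgeR 3.30.3, limma 3.44.3 and R 4.0.3 stand in the processing notes of the submitters. The role of each tool, the strand setting of the counting and the filter for detected genes were not given in the sources used here. Log2 values (log2 CPM) of 13733 genes were deposited by the authors. The columns of the authors' means, fold changes and p-values, and 3 further files that repeat rows of changed genes, were not used.

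Back-transformation with a prior count of 1 gave whole reads for 100% of values, with no deviation above 3.4e-08 reads. These reads served for the descriptions and for an alternative with limma-voom. The design for log2 values was limma 3.58.1 in R 4.3.3 with an intensity trend over all genes and no block, two-sided, at a Benjamini-Hochberg adjusted p of at most 0.05. It was checked on simulated counts. These had no rat effect and no changed genes that were nearly silent in anti-control, so the check covers neither case. Differences are anti-mt-tRF-LeuTAA minus anti-control. Ratios of summed reads carry 95% counting intervals.

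Replicate numbers pair the libraries, since each number is 1 rat. Deviations from the group means correlated by 0.474 to 0.763 between same-numbered libraries (median 0.628), so a fit with the replicate block was computed beside each result. The fit without the block ignores this pairing and called 1494 genes higher and 638 lower. With the block 2412 genes were higher and 2431 lower, the same numbers that the study reported. A gene called with the block alone is therefore not to be read as unchanged. The members and gene lists were chosen with earlier results of these data known. The genes named were the members, all listed neighbours within 200 kb, up to 4 called members of each list (or the 2 most abundant where none was called), the chains Il20ra, Il20rb and Il22ra1, and the 5 genes most correlated with the summed members. A member of the relay list is not reported here and was left out of all counts of pathway genes. Other list members given with values were chosen after these had been seen. Alternatives were the omission of each library (12 fits) and 8 others on the block, the scaling, the prior count, the filter and the tool. Promoter sequences are from RefSeq (GRCr8).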

Additional observations from a re-analysis of the deposited data

Results flagged for a closer look

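In 6 of 67 groups of 6 libraries examined for the named genes, a single library stood apart from the other 5 by Dixon's criterion, which chance meets in about 1 in 20 groups. Of the neighbours, Pigr was at 6.05 log2 CPM in anti-mt-tRF-LeuTAA replicate 2, while the other silenced libraries lay between 3.77 and 4.53. Of the markers, Pdx1 was at 6.33 log2 CPM in anti-mt-tRF-LeuTAA replicate 2 (others 7.08 to 7.46) and Krt10 at -0.21 log2 CPM in anti-mt-tRF-LeuTAA replicate 1 (others 0.73 to 1.10). In anti-control replicate 5, Mrc1 was at 2.79 log2 CPM (others 1.58 to 1.88) and Cd68 at 5.18 log2 CPM (others 1.95 to 3.00). Cdh5 was at 0.24 log2 CPM in anti-control replicate 6 (others 5.40 to 7.78). No library stood apart by this criterion for Il19, Il20 or Il24.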

How the results depend on the processing

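The log2 differences of Il19, Il20 and Il24 were positive under each alternative that gave a value, and the restriction to genes at or above the median level gave none, since it removed them. Without 1 library each they were 6.26 to 6.68 for Il19, 6.50 to 7.15 for Il20 and 8.43 to 8.62 for Il24. Quantile normalization gave 5.70 for Il19 and 7.23 for Il24, and Il24 moved to 10.50 with a prior count of 0.25, to 6.92 with a prior count of 3 and to 9.51 with limma-voom, as its anti-control value is set by the prior count. The replicate block, which pairs the libraries by rat, gave 14 pathway genes higher, 13 lower and 2 neighbours lower. Among genes at or above the median level, 0 neighbours were higher and 2 pathway genes were higher and 1 lower, from fewer genes. Without 1 library each, 3 to 6 pathway genes were higher and 3 to 4 lower. Signs turned for genes that were not called without the block. Quantile normalization gave -0.22 for Fcmr and -0.10 for Lck, and scaling to library size alone gave 0.0472 for Il22ra1 and 0.0143 for Krt10. Without 1 library each the range was -0.26 to 1.26 for Fcmr, -0.14 to 0.20 for Il22ra1, -0.10 to 0.41 for Lck, -0.40 to 0.0465 for Cd4, -0.14 to 0.12 for Krt10, -0.69 to 0.92 for Cdh5 and -0.0924 to 1.12 for Kdr, and the cause was not tested. Depth limits the anti-control levels of Il19, Il20 and Il24, which rest on 25, 21 and 0 reads.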
